A study of Rattus norvegicus with 18 samples.

Results

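T cell and cytotoxic lymphocyte genes were followed in the livers of rats with non-alcoholic steatohepatitis (NASH). The set holds 10 of the 32623 genes of the expression tables, chosen by symbol: Cd3d, Cd3e and Cd3g, Cd4, Cd8a and Cd8b, Lck, Nkg7, Gzma and Prf1. All 10 were found. T cells recognize peptides through a receptor that signals by way of the CD3 chains and the kinase Lck. The coreceptor CD4 marks helper and regulatory T cells, and the coreceptor CD8 marks cytotoxic T cells, which kill target cells with perforin and granzymes as natural killer (NK) cells do. The liver is known for its large resident populations of T and NK cells, and in the rat some of these genes are shared with other cells, since macrophages also carry CD4 and NK cells carry CD8 alpha chains without CD8 beta.

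Whole liver RNA of 6 control, 6 NASH and 6 NASH-CH (NASH with cirrhosis) male Wistar rats was sequenced, each rat giving 1 library. In the NASH group, CCl4 inhalation, which is toxic to the liver, was combined with oral phenobarbital over 6 weeks, and 4 weeks on a diet rich in fat and cholesterol (HFCD) came after it. In the NASH-CH group, CCl4 and phenobarbital alone took 8 weeks, and HFCD, CCl4 and phenobarbital were then combined over 16 weeks. Control rats were given chow and normal water for 12 weeks. The labels describe both models only as CCl4 with HFCD for 10 or 24 weeks. Toxin, phenobarbital, diet and duration therefore cannot be told apart, and rats were housed 2 per cage, with the cages not given. The tissue is whole liver, so that fewer cells of a type and less RNA per cell cannot be told apart either.

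The sum of expected counts, the gene-level read estimates of the RSEM program, ran from 19498516 to 27174006 in control rats, from 20827733 to 29491895 in NASH rats and from 44680345 to 60117806 in NASH-CH rats. The deeper NASH-CH libraries measure these sparse genes more precisely. Levels are given as CPM, the counts of a gene per 1000000 counts of its library after TMM scaling, and 3 counts, taken as the floor of a library, were 0.0948 to 0.187 CPM in the control and NASH libraries and 0.0390 to 0.0655 CPM in the NASH-CH libraries. With 6 rats per group, p-values rest on the spread between rats. The library of NASH-CH rat 5 stood apart. It had the highest CPM of the 18 rats for 7 of the 10 genes (70%), against 15% of all 12904 genes tested. It was also highest for 5 of 8 pan-leukocyte genes, 6 of 7 neutrophil genes and 0 of 12 macrophage genes. Among the other lists described below it was highest for 15 of 21 T cell receptor, 5 of 12 checkpoint and 7 of 13 homing genes. For cytotoxic and NK cell genes this was 5 of 23, for B cell genes 1 of 8, for stellate cell genes 4 of 7 and for hepatocyte genes 0 of 8. Mpo, the neutrophil myeloperoxidase, had 36 counts there and at most 1 in every other rat. Results that rest on this rat are given with and without it.

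The tables were read against a RefSeq collection of 300-base promoter windows of the GRCr8 assembly, from 250 bases before to 50 bases after a start site, in which 8 of the 10 genes had an entry. Cd4 and Cd8b did not. The windows of the 3 cytotoxic genes are shown because the change described below concerned Gzma and its ratio to Prf1. They lie at chr2:46485647-46485946 on the minus strand (Gzma), chr20:29788790-29789089 on the plus strand (Prf1) and chr1:102981247-102981546 on the plus strand (Nkg7). Capitals mark matches on either strand to the core letters of RUNX factors (TGTGGT or ACCACA) and of ETS factors (AGGAAG or CTTCCT), which are known regulators of lymphocyte genes.
Gzma: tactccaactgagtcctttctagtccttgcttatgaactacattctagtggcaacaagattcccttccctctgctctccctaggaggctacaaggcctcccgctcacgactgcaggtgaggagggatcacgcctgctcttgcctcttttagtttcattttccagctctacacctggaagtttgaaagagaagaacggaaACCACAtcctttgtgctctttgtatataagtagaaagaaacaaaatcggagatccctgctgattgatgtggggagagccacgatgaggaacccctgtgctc
Prf1: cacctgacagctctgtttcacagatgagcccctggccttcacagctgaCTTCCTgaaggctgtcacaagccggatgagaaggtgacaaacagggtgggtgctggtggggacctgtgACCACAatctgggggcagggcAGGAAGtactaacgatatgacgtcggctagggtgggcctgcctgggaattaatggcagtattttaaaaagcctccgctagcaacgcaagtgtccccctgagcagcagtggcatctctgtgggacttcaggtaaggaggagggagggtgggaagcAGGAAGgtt
Nkg7: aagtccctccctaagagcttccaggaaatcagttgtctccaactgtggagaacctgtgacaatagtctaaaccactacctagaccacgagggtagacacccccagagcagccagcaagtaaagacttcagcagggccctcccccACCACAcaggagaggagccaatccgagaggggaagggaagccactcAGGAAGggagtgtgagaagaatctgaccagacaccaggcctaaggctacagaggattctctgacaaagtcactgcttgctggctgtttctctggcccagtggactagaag
The RUNX letters were present in 4 of the 9 windows of these genes (Lck has 2 start sites) and in 17.3% of all 33469 promoter windows. The ETS letters were present in 7 of the 9 windows and in 34.5% of all. Gzma held 1 RUNX and 0 ETS matches, Prf1 held 1 and 3, and Nkg7 held 1 and 1, and no RUNX or ETS match overlapped another. A match of letters is a description and not a binding site.

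In NASH-CH livers Gzma was lower than in control livers, while the other 5 genes that could be tested did not pass the test. Cd8b, which was close to 0 in control livers, was higher in NASH-CH livers in fits without a filter on low counts. The CD3 chains were at a few counts in most rats, and the NASH-CH values of Cd3d and Cd3e rested to a large part on rat 5. No gene of the set was called in NASH rats. The filter on low counts, which asks for enough counts in at least as many rats as the smallest group has, left Cd4, Cd8a, Lck, Nkg7, Gzma and Prf1 for testing with limma-voom, and Cd3d, Cd3e, Cd3g and Cd8b outside it.

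**Figure D1:**
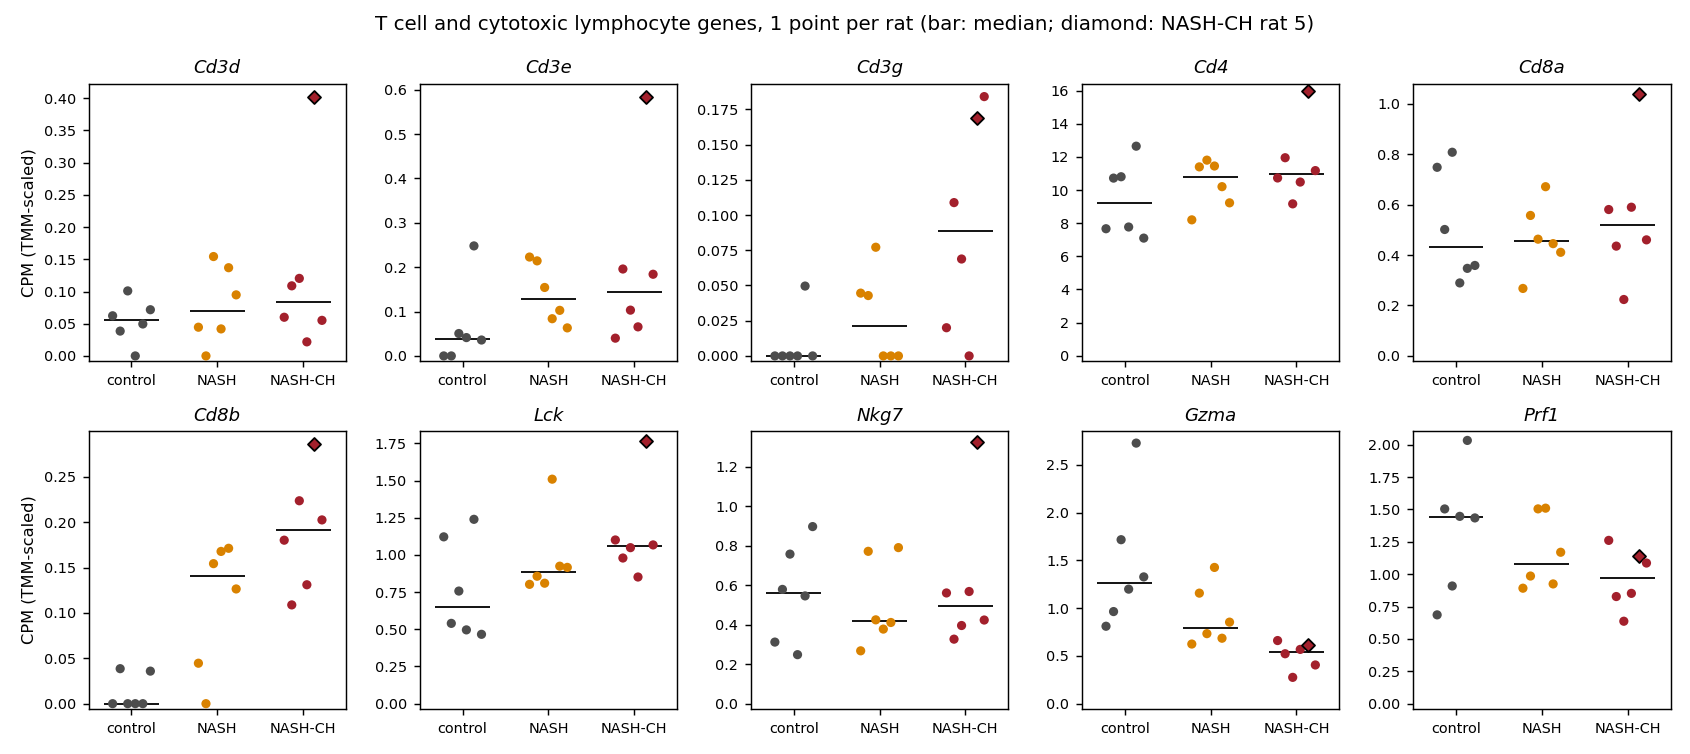
Level of each of the 10 genes in every rat (vertical axis, TMM-scaled CPM, a separate linear scale per gene) in control, NASH and NASH-CH rats, with bars at the group median and a diamond for NASH-CH rat 5. The 6 NASH-CH points of Gzma (0.275 to 0.660) lie below all control points (0.810 to 2.73), and those of Cd8b (0.109 to 0.286) lie above all control points (0 to 0.0386).

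Gzma (ENSRNOG00000010603) encodes granzyme A, a serine protease of cytotoxic granules. Its level in control rats 1 to 6 was 0.810, 0.964, 1.72, 1.20, 2.73 and 1.33 CPM. In NASH rats it was 0.624, 1.16, 0.733, 1.43, 0.685 and 0.853 CPM, and in NASH-CH rats 0.660, 0.522, 0.275, 0.568, 0.610 and 0.405 CPM. Every NASH-CH rat was below every control rat, while the NASH rats overlapped with both groups. The group means were 1.46 ± 0.697, 0.913 ± 0.314 and 0.507 ± 0.143 CPM (SD, n = 6 each). These levels rest on 13 to 55 counts per rat.

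The log2 fold change of Gzma in NASH-CH against control rats was -1.46 (SE 0.28, adjusted p = 0.0019, limma-voom), a fold of 0.364 (95% interval 0.242 to 0.548). It was therefore lower, in 6 of 6 NASH-CH rats against the control mean. It was 1 of 6 genes of the set called in this comparison, where 17% of all genes tested were called and 8.6% were called lower. Groups that do not overlap in this direction were found for 3.46% of all genes tested. Without NASH-CH rat 5 the log2 fold change was -1.55 (adjusted p = 0.00216), in a fit that called 8.59% of genes lower. In NASH against control rats it was -0.62 (SE 0.29, unadjusted p = 0.0468, adjusted p = 0.225), which did not pass the threshold. In NASH-CH against NASH rats it was -0.84 (SE 0.30, adjusted p = 0.131), so the step between the models did not pass either, although 5 of 6 NASH-CH rats were below every NASH rat.

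Prf1 (ENSRNOG00000000562) encodes perforin, the protein that forms pores in the target cell through which granzymes enter. It had 0.686, 1.50, 0.909, 1.45, 2.03 and 1.43 CPM in control rats, 0.891, 0.985, 1.50, 1.51, 0.924 and 1.17 CPM in NASH rats, and 1.26, 0.827, 0.636, 0.852, 1.14 and 1.09 CPM in NASH-CH rats. The 3 groups overlapped. The log2 fold change was -0.46 (SE 0.23, adjusted p = 0.180) in NASH-CH and -0.19 (SE 0.25, adjusted p = 0.707) in NASH against control rats. The 95% interval of the NASH-CH difference ran from -0.95 to 0.02 on the log2 scale.

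Nkg7 (ENSRNOG00000017749) encodes a membrane protein of cytotoxic granules. Its control values were 0.312, 0.578, 0.757, 0.248, 0.545 and 0.896 CPM, its NASH values 0.267, 0.771, 0.424, 0.377, 0.411 and 0.790 CPM, and its NASH-CH values 0.560, 0.326, 0.396, 0.568, 1.32 and 0.423 CPM. The groups overlapped, with NASH-CH rat 5 above all other rats. The log2 fold change was 0.08 (SE 0.39, adjusted p = 0.905) in NASH-CH and -0.12 (SE 0.44, adjusted p = 0.907) in NASH against control rats. Without rat 5 the NASH-CH value was -0.26, with the opposite sign (adjusted p = 0.614). With 5 to 102 counts per rat the 95% interval was wide, from -0.74 to 0.90 in NASH-CH against control rats.

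The ratio of Gzma to Prf1 within a rat does not depend on the scaling of the library. As log2((count + 0.5)/(count + 0.5)) the control rats had 0.09 ± 0.54, the NASH rats -0.37 ± 0.42 and the NASH-CH rats -0.94 ± 0.31 (SD, n = 6 each). The NASH-CH ratio was 1.03 lower than the control ratio on the log2 scale (difference -1.03, two-sided exact permutation p = 0.00433, adjusted p = 0.0260 over 12 ratio tests), with 6 of 6 NASH-CH rats below the control mean. The control rats ranged from -0.63 to 0.90 and the NASH-CH rats from -1.40 to -0.58, so the groups met at their edges. NASH rats did not differ from control rats past the threshold (-0.46, exact permutation p = 0.132, adjusted p = 0.226), nor did NASH-CH from NASH rats (-0.57, exact permutation p = 0.0216, adjusted p = 0.0844). The smallest p that 6 against 6 rats allow is 0.00216.

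Among the T cell genes, Lck (ENSRNOG00000009705) encodes the kinase that phosphorylates the CD3 chains. It had 1.12, 0.540, 0.757, 0.496, 1.24 and 0.466 CPM in control rats, 0.802, 0.857, 0.810, 1.51, 0.924 and 0.916 CPM in NASH rats and 1.10, 0.979, 1.05, 0.852, 1.77 and 1.07 CPM in NASH-CH rats. All NASH-CH rats were above the control mean of 0.770 CPM, but control rats 1 and 5 lay among them. The log2 fold change was 0.70 (SE 0.26, unadjusted p = 0.0147, adjusted p = 0.0714) in NASH-CH and 0.45 (SE 0.29, adjusted p = 0.394) in NASH against control rats, and neither passed the threshold. Without NASH-CH rat 5 the former was 0.53 (adjusted p = 0.118). With scaling by library size only, which moved the median of all genes tested to 0.27, it was 0.90 and passed (adjusted p = 0.0309).

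Cd4 (ENSRNOG00000016294) encodes the coreceptor of helper T cells, a protein that macrophages carry as well in the rat. With 123 to 1230 counts per rat it was the most deeply counted gene of the set. It had 7.10 to 12.6 CPM in control rats (median 9.24), 8.20 to 11.8 CPM in NASH rats (median 10.8) and 9.17 to 16 CPM in NASH-CH rats (median 10.9). The groups overlapped, and NASH-CH rat 5 was again the highest. The log2 fold change was 0.31 (SE 0.15, adjusted p = 0.180) in NASH-CH and 0.16 (SE 0.16, adjusted p = 0.606) in NASH against control rats, with 95% intervals of -0.02 to 0.63 and -0.18 to 0.49. As a fold, the upper bound in NASH-CH rats was 1.55.

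Cd8a (ENSRNOG00000007178) and Cd8b (ENSRNOG00000007129), which neighbour each other in the rat genome, encode the alpha and beta chains of CD8. Cd8a had 0.748, 0.501, 0.808, 0.289, 0.347 and 0.359 CPM in control rats, 0.267, 0.557, 0.463, 0.671, 0.445 and 0.411 CPM in NASH rats and 0.580, 0.435, 0.224, 0.590, 1.04 and 0.460 CPM in NASH-CH rats. The groups overlapped, and the log2 fold changes were 0.13 (SE 0.36, adjusted p = 0.831) in NASH-CH and -0.03 (SE 0.41, adjusted p = 0.980) in NASH against control rats. Without rat 5 the NASH-CH value was -0.15. Cd8b had 0, 1, 0, 0, 0 and 1 counts in control rats, 1, 0, 4, 4, 5 and 4 counts in NASH rats and 9, 5, 13, 6, 22 and 11 counts in NASH-CH rats. In CPM the NASH-CH rats (0.109 to 0.286) were above all control rats (0 to 0.0386), and 5 of 6 NASH rats were too.

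Summed over rats, Cd8b had 66 counts in NASH-CH and 2 in control libraries, a depth-corrected ratio of 13.4 (95% exact interval 3.55 to 113). Without NASH-CH rat 5 the ratio was 11.6 (3.03 to 98.8). For NASH it was 18 against 2 counts, a ratio of 7.71 (1.85 to 68.5). These intervals cover counting error only and not the spread between rats. In the fit without a filter, Cd8b was higher in NASH-CH than in control rats, by 2.59 on the log2 scale with limma-voom (adjusted p = 0.000448) and by 3.42 with the edgeR quasi-likelihood test (adjusted p = 0.00349). Without NASH-CH rat 5 the limma-voom value was 2.45 (adjusted p = 0.00159). With all rats, limma-voom without a filter called 26.3% of 20887 genes (7.32% higher, 19% lower), and edgeR without a filter 11.2% (6% higher, 5.22% lower). NASH-CH levels that were all above the control levels, as for Cd8b, were found for 2.63% of these genes. The split moved with the tool. At such counts limma-voom also called Ifng lower, a gene picked here after its values were seen. Ifng had 1 count in total over the 18 rats, and edgeR did not call it. With NASH-CH counts thinned to the depth of the other groups, Cd8b was past the threshold as well (log2 fold change 2.78, adjusted p = 0.000764). In NASH against control rats it was 1.67 (adjusted p = 0.0852), which passed only without NASH rat 2 (2.13, adjusted p = 0.0153) or with sample quality weights (1.73, adjusted p = 0.0374). The fits without a filter called 1.28% (limma-voom) and 1.96% (edgeR) of genes in this comparison. In NASH-CH against NASH rats they called 12.7% and 3.15%, and 0 genes of the set.

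The ratio of Cd8a to Cd8b within a rat differed in the same comparison. On the log2 scale the control rats had 3.91 ± 0.85, the NASH rats 2.18 ± 1.29 and the NASH-CH rats 1.43 ± 0.77 (SD, n = 6 each). All NASH-CH ratios (0 to 2.08) were below all control ratios (2.81 to 5.04), a difference of -2.48 (two-sided exact permutation p = 0.00216, the smallest possible, adjusted p = 0.0260). The NASH difference was -1.73 (exact permutation p = 0.0281, adjusted p = 0.0844), and NASH rat 2, with 0 Cd8b counts, was the one NASH rat at the control level (4.75). In control rats, where Cd8b had 0 counts in 4 of 6, the ratio depends on the 0.5 counts added, so its size there is set in part by the Cd8a count. With 1 count added in place of 0.5 the direction and the call were the same. The ratio of Cd4 to Cd8a was 4.23 ± 0.64, 4.45 ± 0.26 and 4.48 ± 0.50 in the 3 groups, and none of its differences passed the threshold (exact permutation p = 0.452 to 0.905). Since macrophages carry CD4 and NK cells carry CD8 alpha, it is no measure of helper to cytotoxic T cells.

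**Figure D2:**
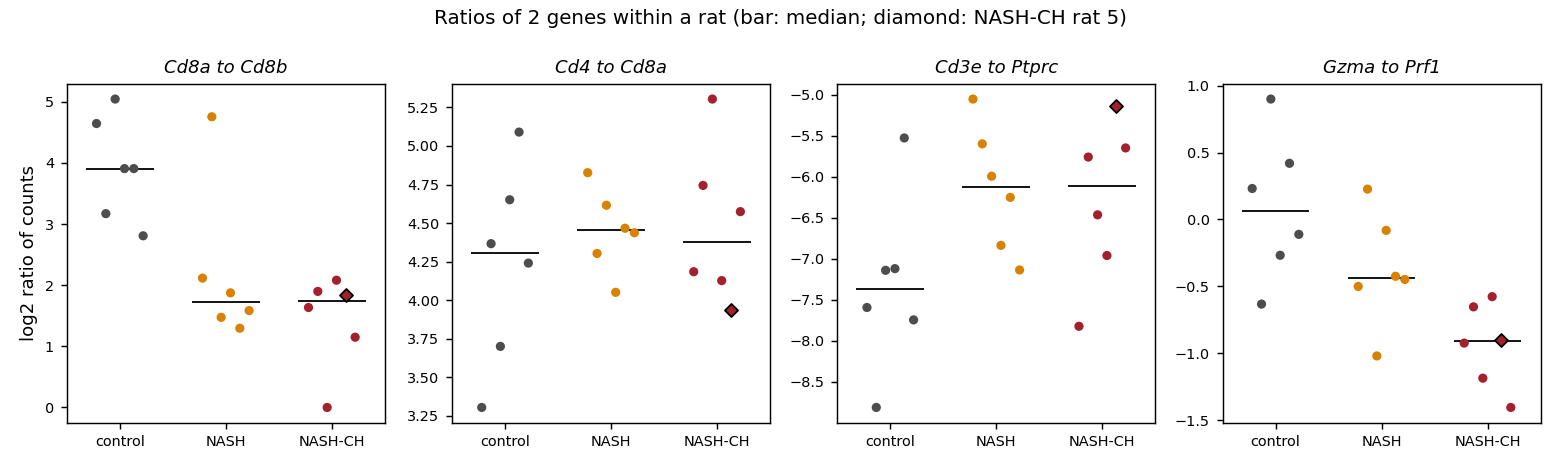
Log2 ratio of the counts of a pair of genes in every rat (vertical axis) for Cd8a to Cd8b, Cd4 to Cd8a, Cd3e to Ptprc and Gzma to Prf1 in control, NASH and NASH-CH rats, with bars at the group median and a diamond for NASH-CH rat 5. The 6 NASH-CH points of Cd8a to Cd8b (0 to 2.08) lie below all control points (2.81 to 5.04), and 5 of 6 NASH points do so as well.

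Cd3e, Cd3d and Cd3g, which lie side by side in the genome, encode chains of the T cell receptor complex. They are the defining genes of T cells, and they were close to the floor of these libraries. Cd3e (ENSRNOG00000016069) had 0, 0, 1, 1, 5 and 1 counts in control rats, 5, 5, 4, 2, 3 and 2 counts in NASH rats and 2, 9, 6, 3, 45 and 10 counts in NASH-CH rats. Cd3d (ENSRNOG00000015994) had 0 to 2, 0 to 4 and 1 to 31 counts per rat in the 3 groups, and Cd3g (ENSRNOG00000015945) had 0 to 1, 0 to 2 and 0 to 13. The groups of all 3 genes overlapped. For Cd3d and Cd3e the top value belonged to NASH-CH rat 5, whose levels were 0.403 and 0.584 CPM, while the other 5 NASH-CH rats reached at most 0.120 and 0.196 CPM.

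Pooled over rats, the NASH-CH to control ratio of Cd3e was 3.79 (95% exact interval 1.83 to 9.11) with NASH-CH rat 5 and 1.98 (0.886 to 4.99) without it. That of Cd3d was 2.89 (1.30 to 7.56) with and 1.43 (0.576 to 4.03) without this rat. Cd3g had 33 against 1 count, a ratio of 13.4 (2.24 to 543), and 10.5 (1.69 to 437) without rat 5. As for Cd8b, these intervals cover counting error only. In the fit without a filter none of the 3 passed the threshold in NASH-CH against control rats, with log2 fold changes of 0.64 for Cd3d (adjusted p = 0.462), 1.41 for Cd3e (adjusted p = 0.0932) and 1.31 for Cd3g (adjusted p = 0.146) by limma-voom. Without NASH-CH rat 5 these were 0.14 for Cd3d (adjusted p = 0.883), 0.94 for Cd3e (adjusted p = 0.240) and 1.04 for Cd3g (adjusted p = 0.273). In the other direction, Cd3e passed without control rat 5 (1.87, adjusted p = 0.0257) or NASH-CH rat 1 (1.73, adjusted p = 0.0393), and Cd3g without NASH-CH rat 4 (1.89, adjusted p = 0.0233). Relative to Ptprc, the gene of the leukocyte antigen CD45, Cd3e had a log2 ratio of -7.32 ± 1.07 (control), -6.14 ± 0.77 (NASH) and -6.30 ± 0.98 (NASH-CH, SD, n = 6 each). Neither the NASH difference of 1.18 (exact permutation p = 0.0563, adjusted p = 0.135) nor the NASH-CH difference of 1.02 (exact permutation p = 0.126, adjusted p = 0.226) passed.

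**Figure D3:**
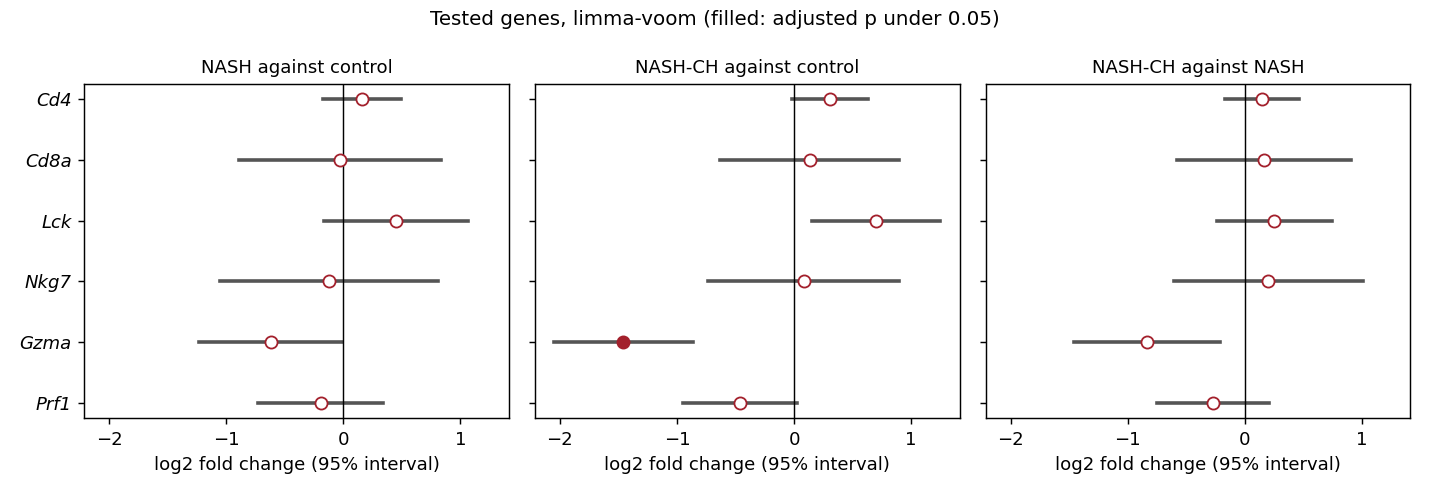
Log2 fold change (horizontal axis) with its 95% interval for the 6 genes tested with limma-voom, in NASH against control, NASH-CH against control and NASH-CH against NASH rats, with filled points for an adjusted p under 0.05. Only Gzma in NASH-CH against control rats (-1.46) is filled, and the intervals of Cd8a and Nkg7 are the widest.

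In NASH against control rats limma-voom called 0 of the 6 genes tested, where it called 3.12% of all genes tested, and 1 (Gzma) had an unadjusted p under 0.05, as did 21.5% of all. In NASH-CH against NASH rats it called 0 of 6, against 4.2% of all genes tested, and again 1 (Gzma) had an unadjusted p under 0.05, as did 17.5% of all. In NASH-CH against control rats Gzma and Lck did (2 of 6), against 31.7% of all. In NASH against control and in NASH-CH against NASH rats, the edgeR quasi-likelihood test and DESeq2 called 0 of the 6 genes as well. The shares of all genes called by these 2 tools are not given here, so their counts of 0 cannot be read as a result about the set. The median log2 fold change of the 6 genes was -0.07 in NASH and 0.11 in NASH-CH against control rats, and 0.15 in NASH-CH against NASH rats, with 0.01 over all genes tested in each. These counts of 0 cover 6 genes, of which all but Cd4 had at most 136 counts in any rat.

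Rats of the same group also differed from each other. With the group means removed, log2 CPM of Cd3g followed that of Cd3e over the 18 rats (Pearson r = 0.79, permutation p = 0.00027, adjusted p = 0.00243 over 9 relations; Spearman rho = 0.81, permutation p = 0.0002, adjusted p = 0.0018). Without NASH-CH rat 5 and control rat 5, the rats farthest from the median of Cd3e, r was 0.75 (permutation p = 0.00605, adjusted p = 0.0544), so this relation no longer passed after adjustment. At so few counts, rats that share zeros share a value. Cd4 had r = 0.57 (permutation p = 0.0295, adjusted p = 0.133; rho = 0.34), which was 0.05 without these rats and rests on them. Of the other 7 genes, none passed, and the 6 with r above 0 (Cd3d, Cd8a, Lck, Nkg7, Gzma and Prf1) had r below 0 without these rats. The 8 tested genes outside the set whose variation was most like that of Cd3e over the 18 rats were Plekha2 (r = 0.850), Fam115c (0.830), Lsm14a (0.803), Ahnak (0.801), Parvg (0.801), P2ry6 (0.798), Rps6ka2 (0.794) and Trim35 (0.786), and without NASH-CH rat 5 these values were 0.676 to 0.797. They were chosen for this likeness, and the 18 points share the same libraries.

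Other genes of lymphocytes were followed as lists. The counts of called genes stand beside 17% of all genes tested in NASH-CH against control rats. In NASH against control rats the share was 3.12%, and in NASH-CH against NASH rats 4.2%. Of 21 genes of the T cell receptor and T cell signalling, 4 passed the filter and 0 were called in any comparison, with 1 (Cd7, a T and NK cell surface protein) lower in NASH-CH rats when rat 5 was left out. Of 12 T cell checkpoint and regulatory genes, 5 were tested, and Icos, a costimulatory receptor of activated T cells, was higher in NASH-CH than in control rats (log2 fold change 0.96, SE 0.27, adjusted p = 0.0230). Icos had 0.149 to 0.538 CPM in control, 0.223 to 0.545 CPM in NASH and 0.482 to 0.740 CPM in NASH-CH rats, so 5 of 6 NASH-CH rats were above every control rat. The other 4 tested genes of this list did not pass, and they lay on both sides of 0: Lag3, an inhibitory receptor, had -1.12 (adjusted p = 0.0696) and Il2rb -0.06, while Havcr2 had 0.57 and Il2ra 0.95 (adjusted p = 0.107). Lag3 had 0.960 ± 0.552 CPM in control and 0.435 ± 0.247 CPM in NASH-CH rats (SD, n = 6 each).

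Of 24 cytotoxic granule and NK cell genes, 8 were tested, and 2 were lower in NASH-CH than in control rats, with 0 higher. Of all genes tested, 8.6% were called lower there, and with 8 genes this count is too small to set the list apart. They were Srgn, which encodes the granule proteoglycan serglycin (-0.44, SE 0.14, adjusted p = 0.0383), and Ccl5, a chemokine of cytotoxic lymphocytes (-1.01, SE 0.27, adjusted p = 0.0171). Ccl5 had 0.873 to 2.08 CPM in control and 0.387 to 1.25 CPM in NASH-CH rats, and all 6 NASH-CH rats were below the control mean. The median log2 fold change of the 8 genes was -0.17. The summed level of the whole list ran from 14.5 to 22.2 CPM (control), from 12.5 to 16.9 CPM (NASH) and from 10.7 to 21.6 CPM (NASH-CH), where rat 5 was the highest and the next rat had 15.3 CPM. Both calls were also made without rat 5.

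Of 13 genes of lymphocyte homing, 11 were tested, and only Ccl21, the chemokine that guides T cells into lymphoid tissue, was called in NASH-CH against control rats (2.09, SE 0.65, adjusted p = 0.0341). Its level ran from 1.62 to 3.17 CPM (control), from 1.89 to 3.74 CPM (NASH) and from 4.04 to 60.7 CPM (NASH-CH). All NASH-CH rats were above all others, and rat 5 was far above the rest, which reached at most 11.3 CPM. NASH-CH levels all above the control levels were found for 2.63% of the 20887 genes with a count in any rat. Without rat 5 Ccl21 was higher too. Of 7 tested pan-leukocyte genes, Cd53, a tetraspanin of leukocytes, was higher in NASH-CH rats (0.71, SE 0.23, adjusted p = 0.0408), and Ptprc had 0.28 (SE 0.19, adjusted p = 0.328). The summed level of the pan-leukocyte list ran from 38.9 to 63.8 CPM (control), from 40.9 to 52.3 CPM (NASH) and from 48.0 to 93.4 CPM (NASH-CH), and the highest NASH-CH value other than that of rat 5 was 54.3 CPM. Of 3 tested B cell genes 0 were called, and 1 (Blk, a B cell kinase) was lower in NASH-CH than in control and in NASH rats when rat 5 was left out. With it, Blk had -0.72 against control (adjusted p = 0.108) and -0.86 against NASH rats (adjusted p = 0.105).

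**Figure D4:**
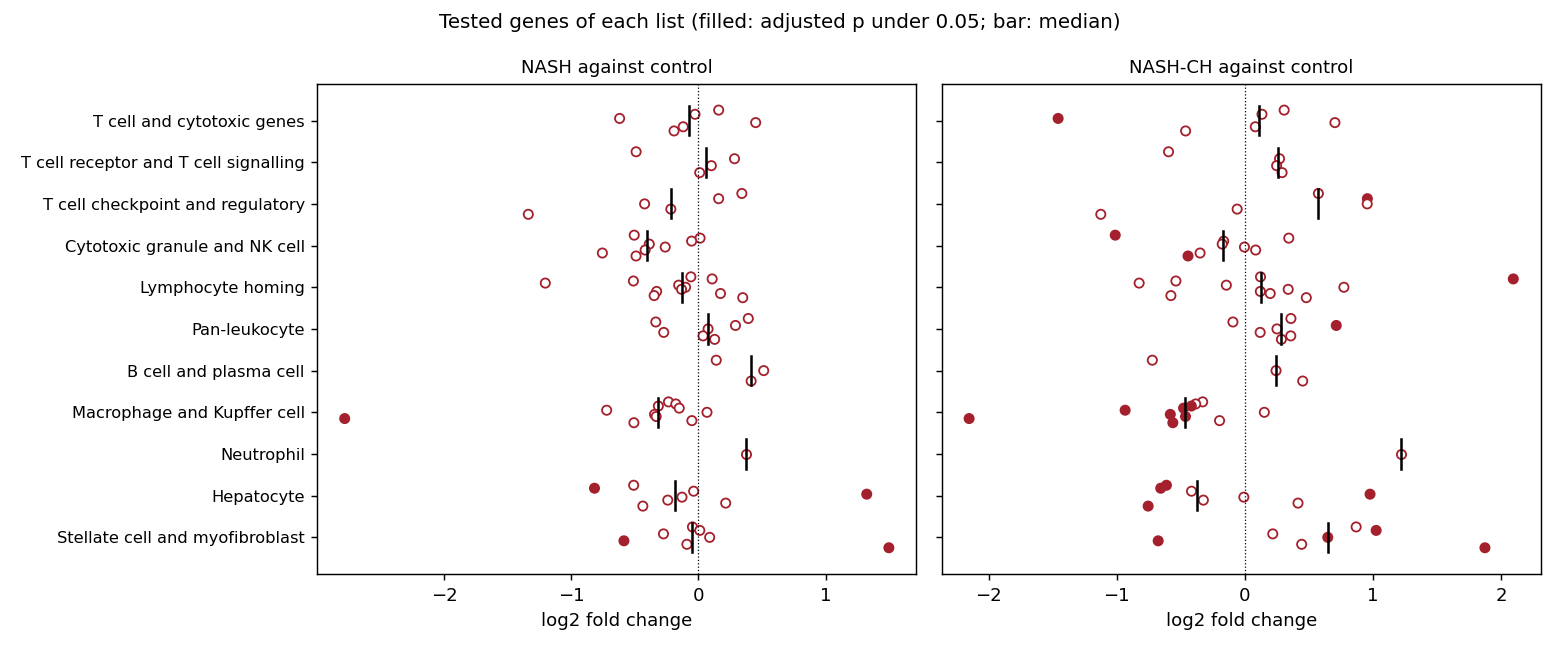
Log2 fold change (horizontal axis) of every tested gene of the T cell and cytotoxic set and of 10 companion lists, in NASH against control rats and NASH-CH against control rats, with filled points for an adjusted p under 0.05 (limma-voom) and a bar at the median of the list. In NASH-CH rats 7 of 11 macrophage genes are filled and below 0, and Gzma (-1.46), Srgn and Ccl5 are the filled cytotoxic genes, also below 0.

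Markers of the other cells of the liver moved in the same comparisons as Gzma. Of 11 tested macrophage and Kupffer cell genes, 7 were lower in NASH-CH than in control rats, where 8.6% of all genes tested were called lower. Among them were Marco (-2.15, SE 0.48, adjusted p = 0.00568), a scavenger receptor, and Cd5l (-0.94, SE 0.21, adjusted p = 0.00534), a secreted macrophage protein. Without rat 5, 5 genes were lower. Of these, Csf1r, Marco, Cd5l and C1qb were among the 7, and Adgre1 had not been called with all rats. Clec4f and Vsig4 were no longer called without this rat. The summed level of the macrophage list ran from 440 to 712 CPM (control), from 336 to 459 CPM (NASH) and from 281 to 431 CPM (NASH-CH). All NASH-CH rats were therefore below all control rats on this sum, as they were for Gzma. Of the general macrophage markers, Cd68 did not pass (0.15, adjusted p = 0.490), and Cd163 was lower (-0.48, adjusted p = 0.0304) but was not called without rat 5. By staining, the study reported more macrophages positive for CD68 and for CD163 in NASH-CH than in control livers. That is a count of stained cells and not of RNA, and the difference was not tested here. Of 8 hepatocyte genes, Cyp2e1, the cytochrome that activates CCl4, was higher in NASH-CH than in control rats (0.98), and Alb, Ttr and Apoa1, which encode plasma proteins, were lower (-0.61 to -0.76). Of 7 stellate cell and myofibroblast genes, Rgs5 (1.87), Col1a1 (1.02) and Des (0.65) were higher and Lrat, a vitamin A enzyme, was lower (-0.68). The part of these other cells in the values of the T cell and cytotoxic genes was not tested.

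In NASH against control rats the same markers gave 1 macrophage gene lower (Marco, -2.78), Cyp2e1 (1.32) and Rgs5 (1.50) higher, and Apoa1 (-0.82) and Lrat (-0.59) lower. No gene of the T cell, cytotoxic, homing, pan-leukocyte or B cell lists was called there by limma-voom. In NASH-CH against NASH rats Col1a1 (1.01), Col3a1 (0.49), a fibrillar collagen gene, and Des (0.56) were higher by limma-voom, of which only Des was called without rat 5, and 0 tested genes of the other lists were called with all rats. Without rat 5 limma-voom also called Ccl21, a homing chemokine, higher and Blk lower. The defining T cell genes Cd3d, Cd3e and Cd3g and the B cell list were at low levels in all groups, with the B cell sum at 1.06 to 3.69 CPM. These values are of whole liver, and no T cell count of the tissue was analysed here.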

How the data were processed

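Hepatic RNA of 18 rats was sequenced from a stranded mRNA kit, with 1 library per rat. Per the labels and the study's methods, the authors trimmed the reads, aligned them to Rnor_6.0 with STAR and quantified genes with RSEM, and each rat's deposited table gives RSEM expected counts without any normalization for depth or gene length. The versions of these programs and the strand setting are not given in the sources used here. The labels name the RNAqueous-Micro kit for RNA extraction, where the methods name the miRNeasy kit. Expected counts with a decimal part (6.53% to 7.73% of genes per rat) were rounded, following the study's methods.

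Samples were grouped by the group of their labels. TMM scaling and filterByExpr came from edgeR 4.0.16, and the test was limma-voom (limma 3.58.1, R 4.3.3), in 1 fit of the 18 rats over 12904 genes, and adjusted by the Benjamini-Hochberg method over all of them with a threshold of 0.05. Intervals of tested genes are 95% intervals of the fit. The 4 genes under the filter were fitted with the 20887 genes that had a count in any rat. Their pooled ratios, and those of Foxp3, Ctla4, Ikzf2, Tnfrsf18 and Tnfrsf4, have exact binomial 95% intervals for counting error. Ratios within a rat were compared by two-sided exact permutation, and correlations by 100000 permutations of rats within groups. Log2 CPM used a prior count of 2. The genes and lists were chosen with earlier results of these data known. Besides the 10 genes, named genes were up to 4 called genes per list with the largest absolute change, Ptprc, Cd68 and Cd163, and the 8 most like Cd3e, and others are named as picked afterwards.

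Replicate numbers are shared between groups, but deviations of same-numbered rats correlated by 0.0154 to 0.0732 on average, and the labels give no pairing, so the numbers were not taken to pair rats. No 2 rats of a group agreed within sampling noise (chi-square per degree of freedom at least 29.9). Alternatives were DESeq2 1.42.0, the quasi-likelihood test of edgeR, DESeq2 size factors, library size only, no filter, at least 10 counts in every rat, 2 groups fitted alone, sample quality weights, a replicate block, thinned NASH-CH counts, other added counts and leaving out each rat. The tests across genes (limma-voom, edgeR and DESeq2) were tried on simulated counts of genes that passed the filter, for NASH-CH against control rats. The fits without a filter were not simulated at the low counts of the genes under it. Promoter windows and gene neighbours come from RefSeq (GRCr8), another build than that of the counts, matched by symbol. Depth per rat is given with the results, and totals limit counting error only. Protein and histology measurements are not analysed here. The result of 1 gene of the companion lists is not reported here.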

Additional observations from a re-analysis of the deposited data

Results flagged for a closer look

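Single rats far from the rest of their group were sought in 42 groups of values, each gene and each ratio in each group of rats, by the gap to the nearest rat as a share of the whole range of the group (Dixon's test at 95%). For independent groups of normally distributed values, chance flags about 1 in 20. Several groups here hold a few counts or zeros, and all share the same rats. The 8 values found therefore cannot be set against that rate.

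Of the 8 values, 4 belonged to NASH-CH rat 5. They were 0.403 CPM for Cd3d, where the next NASH-CH rat had 0.120 CPM, 0.584 CPM for Cd3e, where the next had 0.196 CPM, 1.77 CPM for Lck, where the next had 1.10 CPM, and 1.32 CPM for Nkg7, where the next had 0.568 CPM. The summed pan-leukocyte level of this rat (93.4 CPM) and its summed neutrophil level (6.17 CPM) were also the highest of the NASH-CH rats, whose next values were 54.3 and 2.34 CPM. Their part in these values was not tested.

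Control rat 5 had 0.248 CPM for Cd3e, where the next control rat had 0.0505 CPM, and 0.0496 CPM for Cd3g, where all other control rats had 0. These values rest on 5 counts and on 1 count. The pan-leukocyte sum of this rat (63.8 CPM) and its macrophage sum (712 CPM) were the highest of the control rats.

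NASH rat 4 had 1.51 CPM for Lck, where the next NASH rat had 0.924 CPM. NASH rat 2 had a log2 ratio of Cd8a to Cd8b of 4.75, where the next NASH rat had 2.12, and it was the one NASH rat with 0 Cd8b counts.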

How the results depend on the processing

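Gzma was called lower in NASH-CH against control rats under every alternative run, with log2 fold changes of -1.23 (library size only) to -1.53 (DESeq2) and of -1.57 to -1.28 without single rats. The number of genes of the set called in this comparison was 1 in most alternatives. It was 2 without a filter, by limma-voom or, chosen after seeing the data, by edgeR (Cd8b as well). These fits called 26.3% and 11.2% of 20887 genes. It was 3 with library size only (Cd4 and Lck as well). That scaling also raised the median of all genes tested, and its share of all genes called is not given here. Its 3 calls therefore cannot be read as a result about the set. The filter and the scaling were the sole changes. Library size only turned the sign in NASH against control rats of Cd8a (0.17), Nkg7 (0.11) and Prf1 (0.029). Sample quality weights turned Cd8a (-0.017) and Nkg7 (-0.073) in NASH-CH against control rats, and Cd3e (-0.33) and Nkg7 (-0.036) in NASH-CH against NASH rats. None of these values passed the threshold, and the cause was not tested.

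With the replicate number as a block, same-numbered rats being no pairs by their labels or by their correlation, the counts of called genes were 0, 1 and 0 as without it, and Nkg7 turned to -0.010 in NASH-CH against control rats. The block gave the ratios of Cd8a to Cd8b (-2.48) and of Gzma to Prf1 (-1.03) an adjusted p of 0.125 by exact sign-flip test, whose smallest p is 0.0312. Without the 2 rats farthest from the median of Cd3e, r with Cd3e was 0.75 for Cd3g, -0.073 for Cd3d, -0.31 for Cd8a, -0.34 for Lck, -0.18 for Nkg7, -0.029 for Gzma and -0.15 for Prf1, and a prior count of 0.5 gave -0.081 for Cd8a.

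Leaving out single rats gave ranges of -0.10 to 0.62 for Cd3d, -0.16 to 0.12 for Cd8a and -0.34 to 0.063 for Nkg7 in NASH against control rats, and of -0.15 to 0.38 for Cd8a and -0.26 to 0.26 for Nkg7 in NASH-CH against control rats. In NASH-CH against NASH rats the ranges were -0.11 to 0.72 for Cd3d, -0.40 to 0.40 for Cd3e, -0.12 to 0.41 for Cd8a and -0.15 to 0.37 for Nkg7. The ratio of Cd3e to Ptprc ranged from 0.88 to 1.54 in NASH against control rats, passing without control rat 5 (adjusted p = 0.0346), and from -0.39 to 0.15 in NASH-CH against NASH rats. The ratio of Cd8a to Cd8b ranged from -2.24 to -1.50 in NASH against control rats, passing without NASH rat 2 (adjusted p = 0.0173). In NASH-CH against NASH rats that of Gzma to Prf1 ranged from -0.69 to -0.45, passing without NASH rat 3 (adjusted p = 0.0173), and that of Cd4 to Cd8a from -0.14 to 0.14.

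Depth limits Cd3d, Cd3e, Cd3g and Cd8b in the control and NASH libraries, where 0 to 5 counts per rat were seen.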

Other observations

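The T cell checkpoint and regulatory list held 7 genes under the filter on low counts, which were fitted without it and singled out after their values were seen. Of the 5 genes of this list above the filter, 1 was called, and Lag3 had a log2 fold change of -1.12 in NASH-CH against control rats (adjusted p = 0.0696). Tigit entered the fit only through its NASH-CH counts, so its direction was fixed and it is not counted. Of the other 6 genes, limma-voom called 6 higher in NASH-CH than in control rats (Ctla4, Pdcd1, Foxp3, Ikzf2, Tnfrsf18 and Tnfrsf4), and the edgeR quasi-likelihood test called 5, with Tnfrsf18 at an adjusted p of 0.0701. Without a filter these fits called 7.32% and 6% of 20887 genes higher. Foxp3, the transcription factor that defines regulatory T cells, had 0 to 2 counts in control, 1 to 7 counts in NASH and 11 to 37 counts in NASH-CH rats. Its log2 fold change was 2.74 by limma-voom (adjusted p = 0.000424) and 3.02 by edgeR (adjusted p = 0.00162), and its pooled ratio was 8.77 (95% exact interval 3.92 to 24.3), or 8.17 (3.62 to 22.8) without NASH-CH rat 5. In NASH against control rats the pooled ratio of Foxp3 was 4.29 (1.75 to 12.6), and neither tool called it. Pooled intervals cover counting error only and not the spread between rats.

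Ctla4, an inhibitory receptor of T cells, had at most 1 count in any control or NASH rat and 1 to 35 counts in NASH-CH rats, and its pooled ratio to control was 13.8 (3.67 to 116), or 8.70 (2.23 to 74.8) without rat 5. Ikzf2 (3.70, 2.16 to 6.79), a regulatory T cell transcription factor, and the receptors Tnfrsf4 (5.78, 2.70 to 14.8) and Tnfrsf18 (3.46, 1.85 to 7.16) had pooled ratios above 1 as well. These intervals, too, leave out the spread between rats. Tigit had 0 counts in all 12 control and NASH rats and 1 to 9 counts in NASH-CH rats, whose libraries were deeper. Against NASH rats, limma-voom without a filter called Ctla4 (2.48, adjusted p = 0.00554), Pdcd1 (2.25, adjusted p = 0.00959) and Ikzf2 (adjusted p = 0.0359) higher in NASH-CH rats, as well as Icos (0.80, adjusted p = 0.0491) and Il2ra (1.38, adjusted p = 0.0284), which did not pass in the fit with the filter. Of these edgeR called Ctla4 (3.55, adjusted p = 0.0170), and not Pdcd1 (2.79, adjusted p = 0.0611), Ikzf2 (1.56, adjusted p = 0.0726), Icos (adjusted p = 0.174) or Il2ra (adjusted p = 0.0778). These fits called 12.7% and 3.15% of all genes. Of 17 T cell receptor list genes under the filter, limma-voom called Cd2 (log2 fold change 1.38, adjusted p = 0.0354) and Cd28 (2.28, adjusted p = 0.00318) higher in NASH-CH than in control rats. They encode an adhesion and a costimulatory receptor of T cells, and edgeR called both. These fits called 7.32% and 6% of all genes higher. Rat 5 had 1.18 CPM of Cd2 and the other NASH-CH rats at most 0.540 CPM. The NASH-CH mean of Cd2 was 0.507 CPM with and 0.372 CPM without rat 5, against 0.175 CPM in control rats.

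Among the cytotoxic genes under the filter, Gzmb, which encodes granzyme B, had 0.165 to 0.394 CPM in control, 0.0891 to 0.501 CPM in NASH and 0 to 0.156 CPM in NASH-CH rats. All NASH-CH rats were below all control rats, and the share of such genes without a filter is not given here. Gzmb was called lower by limma-voom (-2.84, adjusted p = 0.00226) and by edgeR (-2.17, adjusted p = 0.0257). Without a filter these fits called 19% and 5.22% of 20887 genes lower. Of 15 cytotoxic genes under the filter with a count, limma-voom called 2 lower (Gzmb and Ifng) and edgeR 1. Against NASH rats limma-voom called Gzmb lower too (-2.23, adjusted p = 0.0254), and edgeR did not (adjusted p = 0.142). In that comparison these fits called 12.7% and 3.15% of all genes. Gzmb rests on 0 to 13 counts per rat and belongs to a family of near copies between which read assignment is uncertain. Gzmk, which neighbours Gzma in the genome, had 0.143 to 0.446 CPM in control and 0.184 to 0.766 CPM in NASH-CH rats and was not called (0.60, adjusted p = 0.322). Limma-voom also called Ifng lower against NASH rats, although all rats of both groups had 0 counts of it.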
